A study of Homo sapiens with 6 samples.

Results

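The 10 genes described here are commonly used to follow the epithelial-mesenchymal transition (EMT): CDH1, CDH2, VIM, EPCAM, ZEB1, ZEB2, SNAI1, SNAI2, TWIST1, and FN1. They were chosen by gene symbol because MALAT1 has been reported to promote EMT, with no measured value in the rule, though earlier results of these data were known. All 10 were found among the 46427 genes of the deposited expression table. Total RNA of 3 NSCLC lines (H460, H1299, and A549) was sequenced in 6 libraries, 1 control library and 1 library treated with siRNA against MALAT1 (si-MALAT1) for each cell line. MALAT1 is a long noncoding RNA that is retained in the nucleus. The 3 lines are established tumor lines of the lung, of which A549 comes from an adenocarcinoma and H460 and H1299 are described as large cell carcinomas. The sample labels give the genotype of every library as tumor and the controls as non-treated, while the methods speak of negative controls and of cells given a control siRNA without saying which served for sequencing. Each condition of a cell line is 1 culture, so the only repeats of a condition are the other cell lines.

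In EMT, epithelial cells that are held together by junctions lose these contacts and gain the shape and motility of mesenchymal cells. E-cadherin, the product of CDH1, is the cadherin of epithelial junctions, and its loss with gain of N-cadherin (CDH2) is called the cadherin switch. The ZEB, SNAIL, and TWIST transcription factors repress CDH1. ZEB1 and ZEB2 and the microRNAs of the miR-200 family repress each other. Carcinoma lines are known to lie at different positions between the epithelial and the mesenchymal state.

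The read counts summed to between 42506818 and 68515992 per library. MALAT1 itself was lower in each library labelled si-MALAT1, with 231045 against 43858 reads for H460, 407551 against 47935 for H1299, and 93747 against 14447 for A549, control first. The epithelial keratin KRT18 was at 236 to 2918 TPM in the 6 libraries, and KRT8 at 123 to 1778 TPM. Keratins KRT7 and KRT19 were low in some lines, with KRT7 at 0.987 and 1.51 TPM in H1299 and at 17.4 to 781 TPM in the other 4 libraries, and KRT19 at 0.230 to 2.23 TPM in H1299 and A549 and at 550 and 399 TPM in H460. Of the markers of other cell types, PTPRC, CD3E, and CDH5 had 0 reads in every library, while CD14, a gene of monocytes, had 648 and 840 reads in H460 and 219 and 490 in A549. The summed TPM of the marker lists was 0.411 to 9.31 for 5 leukocyte genes, of which CD14 made up most, 0 to 1.11 for 4 endothelial genes, 0.0653 to 0.932 for 3 erythroid and liver genes, and 0.377 to 7.41 for 6 fibroblast genes.

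The miR-200 family is shown because its seeds set which mRNAs, ZEB1 and ZEB2 among them, the family can recognize. The mature sequences are given 5′ to 3′ from RefSeq on GRCh38.p14, with the seed, bases 2 to 8, in capitals.
miR-200b-3p: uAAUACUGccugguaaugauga
miR-200c-3p: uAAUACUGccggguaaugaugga
miR-200a-3p: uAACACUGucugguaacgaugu
miR-141-3p: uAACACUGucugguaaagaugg
The first pair shares the seed AAUACUG and the second pair the seed AACACUG. The genes of miR-200b and miR-200a lie on the plus strand of chromosome 1, with mature positions 1167160 to 1167181 and 1167916 to 1167937. Those of miR-200c and miR-141 lie on the plus strand of chromosome 12, at 6963742 to 6963764 and 6964155 to 6964176. These libraries hold total RNA and do not measure mature microRNAs. The host transcript MIR200CHG had 6 reads in all 6 libraries together and MIR205HG had 2. The listed genes MIR200A, MIR200B, MIR200C, MIR141, MIR429, and MIR205 had 0 reads in each.

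The levels of the 10 genes are given in TPM, a share of transcripts that the authors scaled for transcript length and library size, so that genes can be compared with each other. Every cell line had high VIM and no cell line lacked ZEB1 or ZEB2. The lines differed in the cadherins, in FN1, and in which of SNAI2 and TWIST1 they held. In these bulk libraries, fewer cells that express a gene and less RNA of it per cell cannot be told apart.

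**Figure D1:**
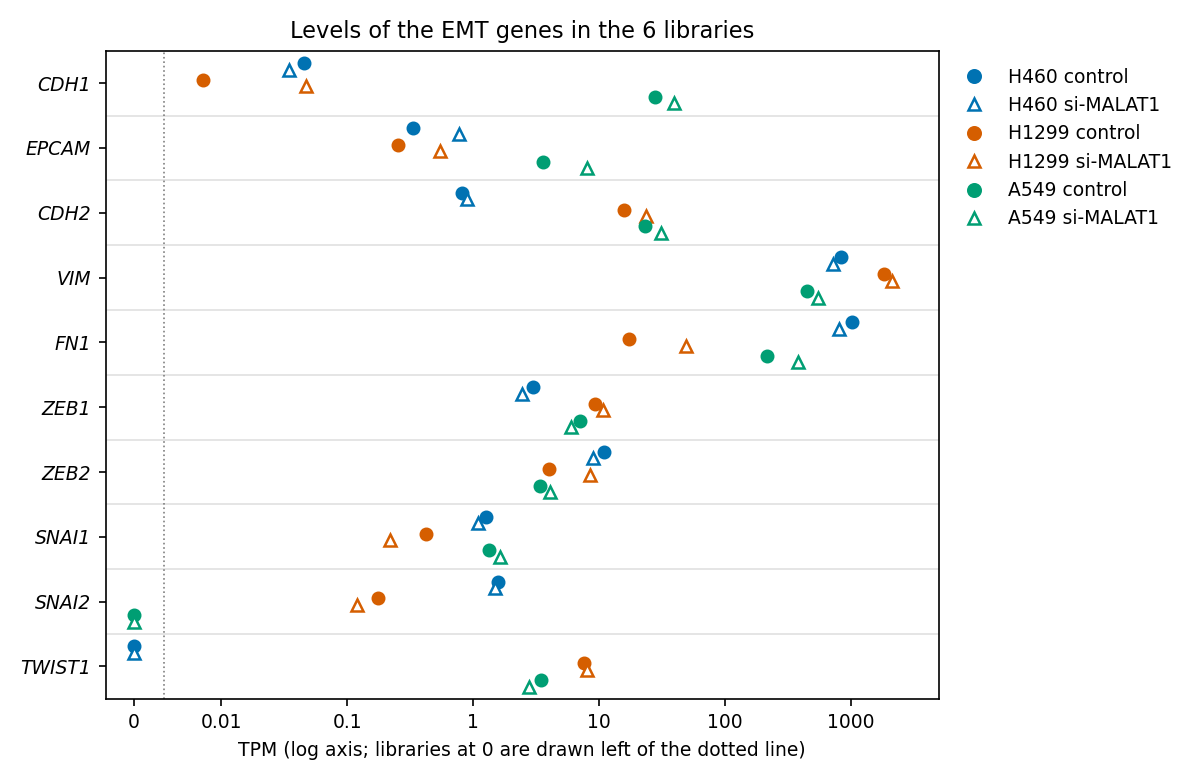
TPM of the 10 EMT genes on a log axis, with filled circles for control and open triangles for si-MALAT1 libraries of H460, H1299, and A549, 1 symbol per library and libraries at 0 drawn left of the dotted line. CDH1 was at 27.8 and 39.4 TPM in A549 and under 0.05 TPM in the other 4 libraries, while SNAI2 was at 0 in A549 and TWIST1 at 0 in H460.

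Of the epithelial genes, CDH1 (Gene ID 999, chromosome 16, 68737292 to 68835537 on GRCh38, the build of all gene positions here) encodes E-cadherin. Its reads, control before si-MALAT1 here and for the other genes, numbered 13 and 11 for H460, 2 and 12 for H1299, and 4693 and 7373 for A549. In TPM, CDH1 was at 0.0455 and 0.0346 in H460, 0.00711 and 0.0468 in H1299, with 27.8 and 39.4 in A549. Only A549 held CDH1 above a few reads, and its libraries did not overlap with the other 4. On the mean of the log2 scaled counts, CDH1 was 595-fold higher in A549 than in H460, with 475-fold between the control libraries and 747-fold between the si-MALAT1 libraries. Against H1299 it was 1356-fold higher, where the H1299 level rests on 2 and 12 reads.

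EPCAM (Gene ID 4072, chromosome 2, 47369311 to 47387020) encodes an adhesion molecule of the epithelial cell surface. It had 30 and 73 reads in H460, 23 and 43 in H1299, with 196 and 485 in A549. The corresponding levels were 0.332 and 0.776 TPM, 0.252 and 0.545 TPM, and 3.61 and 8.04 TPM. As with CDH1, both A549 libraries were above the other 4, but at a low level, and H460 and H1299 overlapped. EPCAM was 8.49-fold higher in A549 than in H460, 9.01-fold between the controls and 7.99-fold after si-MALAT1, and 14.3-fold higher than in H1299.

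Of the mesenchymal genes, CDH2 (Gene ID 1000, chromosome 18, 27932878 to 28177130) encodes N-cadherin. Its reads numbered 192 and 219 in H460, 3641 and 4757 in H1299, with 3223 and 4820 in A549. CDH2 was at 0.817 and 0.895 TPM in H460, 15.7 and 23.5 TPM in H1299, with 23.0 and 30.9 TPM in A549. H460 was thus the low line, and the ranges of H1299 and A549 overlapped. Within a library, CDH2 per CDH1 in TPM was 17.9 and 25.9 in H460, and 2212 and 504 in H1299. In A549 the ratio was 0.825 and 0.785, so the A549 libraries held both cadherins at similar levels. H460 had little of either cadherin, and held instead CDH11, a cadherin of mesenchymal cells, at 564 and 456 TPM, where H1299 and A549 had at most 0.116 TPM.

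VIM (Gene ID 7431, chromosome 10, 17228241 to 17237593) encodes vimentin, the intermediate filament of mesenchymal cells. It had 104839 and 84942 reads in H460, 227383 and 225705 in H1299, with 33049 and 41088 in A549. VIM stood at 842 and 721 TPM in H460, 1844 and 2120 TPM in H1299, with 446 and 547 TPM in A549. The 3 lines did not overlap, with H1299 high and A549 low, yet the lowest library still held 446 TPM.

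FN1 (Gene ID 2335, chromosome 2, 215360862 to 215436167) encodes fibronectin, a protein of the extracellular matrix. It had 477355 and 382402 reads in H460, 7940 and 19555 in H1299, with 59911 and 118543 in A549. FN1 was at 1031 and 800 TPM in H460, 17.3 and 48.7 TPM in H1299, with 215 and 382 TPM in A549. H460 was high, A549 intermediate, and H1299 low, with no overlap between lines. FN1 was 39.3-fold lower in H1299 than in H460, with 70.1-fold between the control libraries and 22.0-fold between the si-MALAT1 libraries. In A549 it was 3.85-fold lower than in H460, with 5.60-fold and 2.65-fold. The mesenchymal genes therefore ranked the lines differently: H1299 was highest for VIM and lowest for FN1.

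Among the transcription factors, ZEB1 (Gene ID 6935, chromosome 10, 31318417 to 31529804) encodes a zinc finger repressor of CDH1. It had 1064 and 893 reads in H460, 3247 and 3287 in H1299, with 1485 and 1410 in A549. ZEB1 levels were 3.01 and 2.43 TPM in H460, 9.22 and 10.8 TPM in H1299, with 7.04 and 5.96 TPM in A549. H460 was the low line for ZEB1. Its paralog ZEB2 (Gene ID 9839, chromosome 2, 144384081 to 144520119) had 4479 and 3977 reads in H460, 1551 and 2684 in H1299, with 742 and 1013 in A549. ZEB2 levels were 11.04 and 8.98 TPM in H460, 3.99 and 8.54 TPM in H1299, with 3.41 and 4.08 TPM in A549. H460 was the high line for ZEB2. The TPM of ZEB2 per ZEB1 was 3.67 and 3.70 in H460, while ZEB1 exceeded ZEB2 by 2.31 and 1.27 in H1299 and by 2.06 and 1.46 in A549. The A549 libraries held CDH1 and both ZEB genes.

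SNAI1 (Gene ID 6615, chromosome 20, 49982980 to 49988886) encodes SNAIL, a repressor of CDH1. It had 127 and 113 reads in H460, 42 and 19 in H1299, with 81 and 110 in A549. SNAI1 was at 1.27 and 1.09 TPM in H460, 0.420 and 0.218 TPM in H1299, with 1.34 and 1.64 TPM in A549, so H1299 was the low line.

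SNAI2 (Gene ID 6591, chromosome 8, 48917598 to 48921429) encodes SLUG, of the same family. It had 202 and 196 reads in H460, 23 and 14 in H1299, with 0 in both A549 libraries. SNAI2 was at 1.58 and 1.48 TPM in H460 and 0.175 and 0.120 TPM in H1299. Against a count of 3 over the A549 libraries, SNAI2 was at least 101-fold higher in H460 and at least 8.17-fold higher in H1299.

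TWIST1 (Gene ID 7291, chromosome 7, 19113047 to 19117636) encodes a basic helix-loop-helix factor. It had 0 reads in both H460 libraries, 711 and 620 in H1299, with 196 and 175 in A549. TWIST1 was at 7.62 and 7.96 TPM in H1299 and 3.45 and 2.76 TPM in A549. Against a count of 3 over the H460 libraries, TWIST1 was at least 387-fold higher in H1299 and at least 163-fold higher in A549. H1299 thus had reads of all 5 transcription factors, though few of SNAI1 (42 and 19) and SNAI2 (23 and 14). H460 lacked reads of TWIST1, and A549 lacked reads of SNAI2.

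To compare the cell lines, the pairs of contrasts were taken from 1 edgeR quasi-likelihood fit over the 6 libraries with cell line and treatment as terms, in which the 2 libraries of a line, a control and a si-MALAT1 library, serve as its repeats. All 10 genes passed the filter on low counts. SNAI2 and TWIST1 passed it through the lines that held reads, so that they had to differ. The counts below include TWIST1 in both contrasts with H460 and SNAI2 in both contrasts with A549, calls that were set by the filter. In H1299 against H460, 4 of the 10 genes were called higher, where 25.9% of the 21771 genes tested were, and 4 were called lower, against 24.8%. In A549 against H460, 5 were called higher against 17.4% of all genes, and 4 lower against 17.9%. In H1299 against A549, 4 were called higher against 24.4%, and 5 lower against 22.8%.

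**Figure D2:**
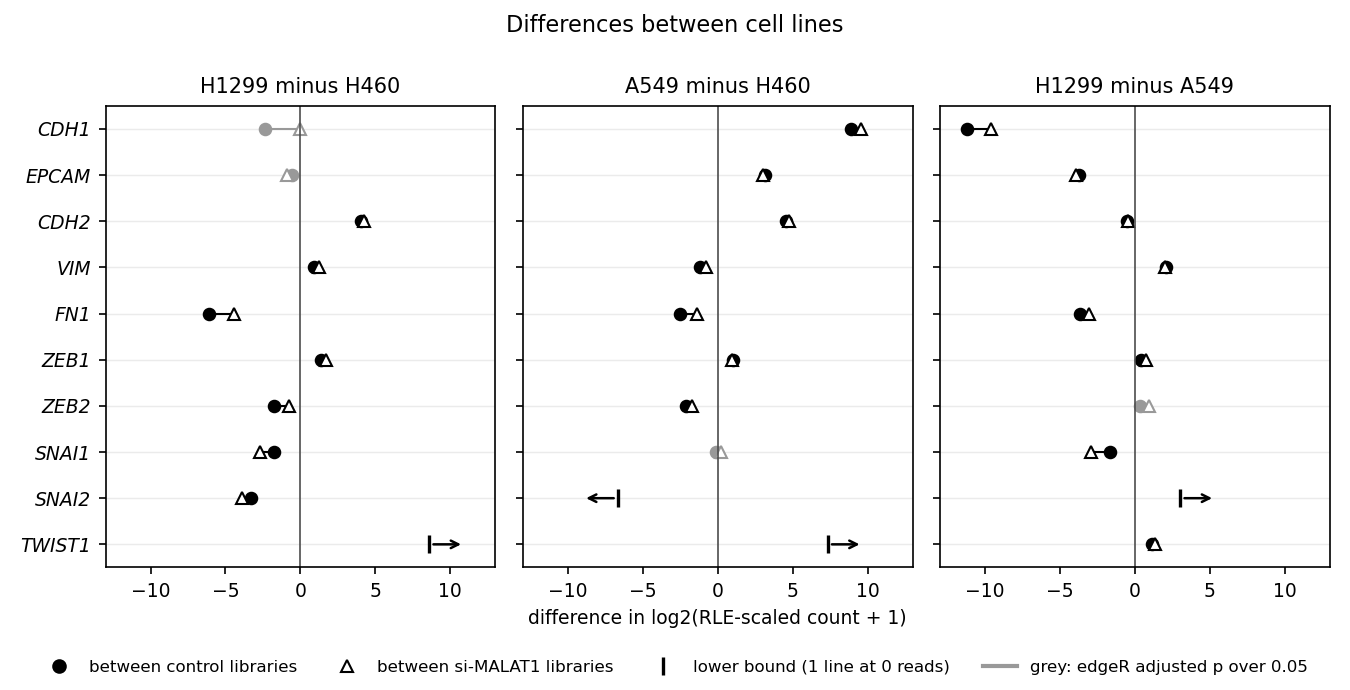
Difference between cell lines in log2(RLE-scaled count + 1) for the 10 EMT genes, as filled circles between control libraries and open triangles between si-MALAT1 libraries. Bars with arrows mark lower bounds on the log2 scale where 1 line had 0 reads, and grey symbols mark an edgeR adjusted p over 0.05, which were CDH1 and EPCAM in H1299 minus H460, SNAI1 in A549 minus H460, and ZEB2 in H1299 minus A549.

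In H1299 against H460, the genes called higher were CDH2, VIM, ZEB1, and TWIST1, and those called lower were FN1, ZEB2, SNAI1, and SNAI2. The edgeR adjusted p was 2.6e-05 for CDH2 and 0.000296 for FN1, the genes with the largest differences among those read in all libraries. CDH2 was 17.6-fold higher in H1299, 16.2-fold in the controls and 19.2-fold after si-MALAT1, and SNAI2 was 12.0-fold lower. CDH1, with 2 to 13 reads in these libraries, had an adjusted p of 0.217, and EPCAM had 0.0771. Without the H1299 si-MALAT1 library the adjusted p of CDH1 was 0.0369, over alternatives from 0.0369 to 0.943.

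In A549 against H460, CDH1, EPCAM, CDH2, ZEB1, and TWIST1 were called higher, and VIM, FN1, ZEB2, and SNAI2 were called lower. The edgeR adjusted p was 5.14e-05 for CDH1, 4.27e-05 for CDH2, and 0.000908 for EPCAM, and CDH2 was 25.2-fold higher in A549. The epithelial gene CDH1 and the mesenchymal gene CDH2 were thus both higher in A549. SNAI1 was called in neither direction, with a difference of -0.14 on the log2 scale between the control libraries and 0.24 between the si-MALAT1 libraries and an adjusted p of 0.944. Without the A549 control library, the calls of VIM, ZEB1, and FN1 were lost, with adjusted p-values of 0.102, 0.0676, and 0.0808. In the full fit these were 0.00497, 0.00541, and 0.0097.

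In H1299 against A549, VIM, ZEB1, SNAI2, and TWIST1 were called higher, and CDH1, EPCAM, CDH2, SNAI1, and FN1 lower. The differences were 4.07-fold for VIM (edgeR adjusted p of 0.000286), 10.2-fold for FN1 (0.00135), and 4.87-fold for SNAI1 (0.00886). The smaller differences were 1.43-fold for CDH2 (0.02), 1.49-fold for ZEB1 (0.0241), and 2.37-fold for TWIST1 (0.0159). These smaller differences depended on single libraries. The adjusted p of CDH2 was 0.0842 without the H1299 control, 0.136 without the A549 control, and 0.171 without the A549 si-MALAT1 library. That of ZEB1 was 0.108 without the A549 control, 0.122 without the H1299 si-MALAT1 library, and 0.223 without the A549 si-MALAT1 library. For TWIST1 it was 0.0632 and 0.102 without the H1299 control or si-MALAT1 library and 0.0849 and 0.122 without that of A549. SNAI1 had 0.061 without the A549 si-MALAT1 library. ZEB2 was 1.56-fold higher in H1299 with an adjusted p of 0.0724, and passed at 0.0311, 0.00937, and 0.0303 without the H460 control, the H1299 control, or the H460 si-MALAT1 library.

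The change from the control to the si-MALAT1 library was examined next, first within each cell line and then over the 3 pairs. If the controls were not transfected, as their labels read, transfection itself and loss of MALAT1 cannot be told apart. EPCAM and CDH2 were higher in the si-MALAT1 library of all 3 cell lines, and 0 of the 8 genes read in every library were lower in all 3. Among all 17834 genes read in every library, 21.4% were higher in all 3 lines and 18.8% were lower in all 3. SNAI2 and TWIST1 are not among these 8. A change within a line has no replicate. The intervals given are exact 95% Clopper-Pearson intervals for how the reads split between both libraries, and cover counting error only.

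**Figure D3:**
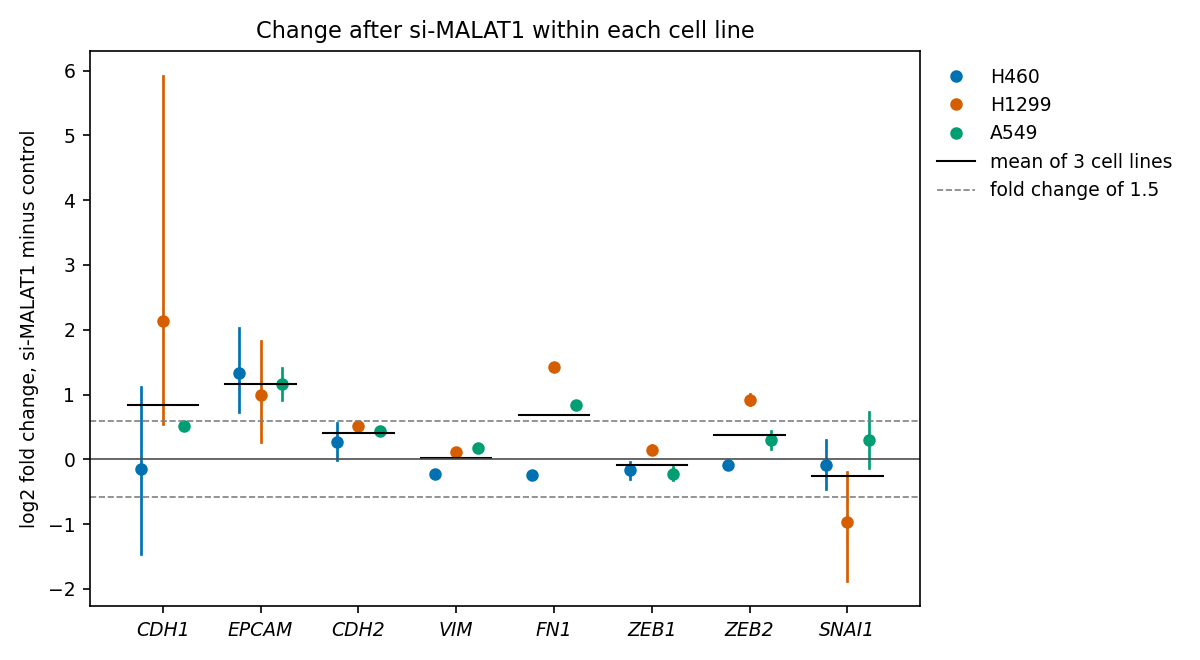
Change in log2(RLE-scaled count + 1) from the control to the si-MALAT1 library within H460, H1299, and A549 for the 8 EMT genes read in every library, with exact 95% counting intervals as vertical lines, the mean of the 3 lines as a black bar, and a fold change of 1.5 as dashed lines. EPCAM lies near or above 1 in each line, and FN1 runs from -0.24 in H460 to 1.43 in H1299.

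EPCAM had the largest mean change of the 8 genes. The reads given above, 30 and 73 for H460, 23 and 43 for H1299, and 196 and 485 for A549, correspond to log2 fold changes of 1.33 (interval 0.73 to 2.03), 0.99 (0.27 to 1.83), and 1.16 (0.92 to 1.41), with a mean of 1.16 ± 0.17 (SD, n = 3). CDH2 was also higher in each line, by 0.27 (-0.01 to 0.56) in H460, 0.52 (0.45 to 0.58) in H1299, and 0.44 (0.37 to 0.50) in A549. The mean of CDH2 was 0.41 ± 0.13 (SD, n = 3). An epithelial surface gene and the mesenchymal cadherin were the 2 of 8 genes higher after si-MALAT1 in all 3 lines, a number near the 21.4% of all genes. The interval of CDH2 in H460 included 0. Each mean was larger than its spread between the lines, for genes named here because their 3 values had the same sign.

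CDH1 had log2 fold changes of -0.15 (-1.46 to 1.11) in H460, 2.14 (0.55 to 5.92) in H1299, and 0.51 (0.45 to 0.56) in A549. Its value in H1299 rests on 2 and 12 reads, and A549, the line that held CDH1 above a few reads, had 1.42-fold more after si-MALAT1. The mean of CDH1, 0.83 ± 1.18 (SD, n = 3), was smaller than its spread.

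Among the genes with over 50 reads in every library, FN1 differed most between the lines. Its log2 fold change was -0.24 (-0.24 to -0.23) in H460, 1.43 (1.39 to 1.47) in H1299, and 0.84 (0.83 to 0.85) in A549. FN1 was thus 2.70-fold higher in H1299, where its control level was lowest, and 1.79-fold higher in A549. VIM had the same order of signs with small values, -0.22 (-0.24 to -0.21), 0.12 (0.11 to 0.13), and 0.17 (0.15 to 0.19).

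Of the transcription factors, ZEB2 had log2 fold changes of -0.09 (-0.15 to -0.03) in H460, 0.92 (0.83 to 1.01) in H1299, and 0.30 (0.17 to 0.44) in A549. ZEB1 had -0.17 (-0.30 to -0.04), 0.15 (0.08 to 0.22), and -0.22 (-0.33 to -0.11) in these lines. The ZEB genes thus differed in size, and ZEB1 stayed within 0.22 of 0 on the log2 scale in every line. SNAI1 had -0.09 (-0.47 to 0.29) in H460, -0.97 (-1.88 to -0.20) in H1299, where its reads went from 42 to 19, and 0.29 (-0.13 to 0.73) in A549. In counts scaled for library size, SNAI2 stood at 187 without and 192 with si-MALAT1 in H460, and at 18.2 and 12.1 in H1299. TWIST1 stood at 563 and 538 scaled counts in H1299, with 258 and 208 in A549.

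At a fold change of at least 1.5, EPCAM was the only one of the 8 genes past the threshold in H460, where 9.5% of the 17834 genes were higher and 10.3% lower. In H1299, CDH1, EPCAM, ZEB2, and FN1 were higher and SNAI1 was lower, against 11.7% and 11.4% of all genes. In A549, EPCAM and FN1 were higher and 0 of the 8 were lower, against 11.5% and 11.4%. The median log2 fold change of the 8 genes was -0.12 in H460, 0.72 in H1299, and 0.37 in A549, where the median over all 17834 genes was 0.02, 0.02, and 0.01. With log2(TPM + 1), 0, 2, and 2 of the 8 genes passed the fold change of 1.5 in H460, H1299, and A549. On that scale the added 1 exceeds the levels of EPCAM in H460 and H1299.

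Over the 3 pairs, 0 of the 10 genes were called by the edgeR quasi-likelihood test with cell line as the block, where 0% of the 21771 genes tested were called and 2836 had an unadjusted p under 0.05. The smallest adjusted p among the 10 was that of EPCAM, 0.152 (unadjusted 0.00306), followed by CDH2 with 0.228 (0.0111) and FN1 with 0.439. The adjusted p was 0.502 for CDH1, 0.531 for ZEB2, 0.834 for ZEB1, 0.837 for TWIST1, 0.864 for SNAI1, 0.956 for SNAI2, and 0.99 for VIM. The Wald test of DESeq2, named in the study's methods, called CDH2 higher with an adjusted p of 0.00586. It called 6.11% of 12485 genes higher, and it gave no adjusted p for EPCAM, SNAI1, or SNAI2, which fell under its filter on mean counts. The adjusted p of CDH2 ran from 0.00586 to 1.00 over the alternatives, and that of EPCAM from 0.123 to 1.00. MALAT1 had an edgeR adjusted p of 0.0541, and of 0.0381 with the genes filtered on the treatment groups. FN1 had 0.0535 without the H460 pair, over alternatives from 0.0535 to 1.00.

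The promoters of FN1 and ZEB2 are shown because both genes were lower in H460 and higher in H1299 and A549 after si-MALAT1, with counting intervals that did not reach 0, as was VIM with smaller values. Each window runs from 250 bases before to 50 after the start that RefSeq gives on GRCh38.p14, and both lie on the minus strand of chromosome 2. FN1 is at chr2:215436019-215436318 and ZEB2 at chr2:144520070-144520369. The cAMP response element TGACGTCA, on either strand, is in capitals.
FN1: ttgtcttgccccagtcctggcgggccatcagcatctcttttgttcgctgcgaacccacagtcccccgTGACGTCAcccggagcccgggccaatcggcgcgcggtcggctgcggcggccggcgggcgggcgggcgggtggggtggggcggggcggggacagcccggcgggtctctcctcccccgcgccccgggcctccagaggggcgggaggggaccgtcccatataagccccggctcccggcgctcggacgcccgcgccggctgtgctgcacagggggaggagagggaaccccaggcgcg
ZEB2: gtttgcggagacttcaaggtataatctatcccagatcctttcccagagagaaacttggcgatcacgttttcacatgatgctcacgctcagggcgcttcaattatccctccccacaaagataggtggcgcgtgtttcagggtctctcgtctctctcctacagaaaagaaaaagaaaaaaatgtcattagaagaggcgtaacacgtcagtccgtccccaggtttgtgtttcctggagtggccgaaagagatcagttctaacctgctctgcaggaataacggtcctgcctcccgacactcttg
The element occurs in the FN1 window at position -183 and not in that of ZEB2, and 1.85% of 35116 promoter windows of this length hold it. The E-box read by ZEB and SNAIL factors, searched as CACCTG or CAGGTG, which are the same site on opposite strands, is in neither window and in 20.6% of all windows. The FN1 window was 76.7% G and C and the ZEB2 window 49%. A match of letters is a description of the window and does not show that a factor binds there.

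Genes that overlap the 10 genes on the opposite strand could share their reads, since use of the strand in counting is not given in the sources used here. VIM-AS1 overlaps exons of VIM and had 54 to 388 reads per library. ZEB1-AS1, opposite ZEB1, had 143 and 246 reads in H460, 353 and 383 in H1299, with 222 and 206 in A549. ZEB2-AS1 had at most 6 reads and LOC112268430, opposite FN1, at most 16. Apart from ZEB1-AS1, these genes had few reads beside the gene they overlap.

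Other genes of the epithelial and mesenchymal states were counted from lists. Genes of a list that were under the cutoff of the filter in both libraries of a line passed it through the other lines, so that their number is given beside each list. Of 30 further epithelial genes, 22 were tested, of which 5 were under the cutoff in at least 1 line. In A549 against H460, 11 were higher, beside 17.4% of all genes tested, and 5 were lower, beside 17.9%. The median log2 difference was 1.44, where the median over all genes tested was -0.01. ELF3, an epithelial transcription factor, was at 60.0 and 71.0 TPM in A549 and 1.04 and 0.913 TPM in H460 and had 0 reads in H1299. SPINT2, a protease inhibitor of epithelia, was at 243 and 136 TPM in A549 and at most 9.67 TPM elsewhere, and DSP, the desmosome component desmoplakin, at 23.6 and 25.6 TPM against 0.123 and 0.0522 TPM in H460. The 5 genes lower in A549 were CLDN4, ESRP1, MAL2, SPINT1, and MUC1. Of these, CLDN4 was at 12.2 and 9.82 TPM in H460 and at 0.452 and 0.612 TPM in A549. In H1299 against H460, 7 epithelial genes were higher, beside 25.9% of all genes, and 8 were lower, beside 24.8%, with a median of -0.01. In H1299 against A549, 4 were higher, beside 24.4%, and 9 were lower, beside 22.8%, with a median of -0.47. The epithelial genes GRHL2, RAB25, and PRSS8 had 0 reads in every library, A549 included.

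Of 28 further mesenchymal genes, 27 were tested, of which 7 were under the cutoff in at least 1 line. In H1299 against H460, 12 were higher and 8 lower, beside 25.9% and 24.8% of all genes. In A549 against H460 the numbers were 12 and 10, beside 17.4% and 17.9%, and in H1299 against A549 they were 12 and 9, beside 24.4% and 22.8%. The median log2 differences were 0.55, -0.22, and 0.16. As with VIM and FN1, single mesenchymal genes ranked the lines differently. S100A4 was at 350 and 440 TPM in H460, 5.52 and 4.77 TPM in H1299, with 193 and 168 TPM in A549. TPM2, a tropomyosin, was low in H460 with 8.90 and 9.82 TPM and stood at 219 to 239 TPM in the other 4 libraries.

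Of 20 other transcription factors tied to EMT, 19 were tested, of which 6 were under the cutoff in at least 1 line. In H1299 against H460, 7 were higher and 4 lower, where the shares of all genes were 25.9% and 24.8%. For A549 against H460 these were 5 and 8 (17.4% and 17.9% of all genes), and for H1299 against A549 they were 8 and 7 (24.4% and 22.8%). The median log2 differences were 0.50, 0.04, and -0.16. HMGA2, a chromatin protein, had 38083 and 35789 reads in H1299, 1889 and 2603 in A549, and 5 and 0 in H460, the order of TWIST1. PRRX1, a homeobox factor, had 1454 and 2971 reads in H1299, at most 9 in H460, and 0 in A549.

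Catenins link cadherins to the cytoskeleton. All 8 genes of the list were tested, of which 2 were under the cutoff in at least 1 line. Of the 8, 2 were higher and 3 lower in H1299 against H460 (25.9% and 24.8% of all genes), 2 and 2 in A549 against H460 (17.4% and 17.9%), and 3 and 1 in H1299 against A549 (24.4% and 22.8%). With 8 genes, these numbers say little about the catenins. CTNNB1, the gene of beta-catenin, was present in every line, at 85.7 to 189 TPM, and so in H460 where CDH1 and CDH2 were low. JUP, plakoglobin, which is also in the epithelial list, was at 54.7 and 43.1 TPM in H460, 2.30 and 3.95 TPM in H1299, with 51.0 and 47.2 TPM in A549.

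After si-MALAT1, 0 genes of these lists, or of the 20 genes of TGF-beta signalling, which induces EMT, were called by edgeR over the 3 pairs. DESeq2 called 1 epithelial and 1 mesenchymal gene higher, 2 transcription factors higher and 1 lower, 3 TGF-beta genes higher and 2 lower, and 1 catenin higher and 1 lower, where it called 6.11% of all genes with an adjusted p higher and 5.54% lower. The median log2 fold change in the edgeR fit was 0.16 over the 22 epithelial genes and 0.01 over the 27 mesenchymal genes. It was -0.03 over the 19 transcription factors, -0.12 over the TGF-beta genes, and 0.13 over the catenins, beside 0.01 over all genes tested. Within the lines, 6 of 15 epithelial genes and 5 of 18 mesenchymal genes read in every library were higher in all 3, beside 21.4% of all genes, and 0 and 3 were lower in all 3, beside 18.8%. The 3 lines are the only repeats and these counts were not tested. The tight junction gene CGN was higher by 1.51, 0.72, and 0.78 on the log2 scale in H460, H1299, and A549 (edgeR adjusted p of 0.155), and the fibrillin gene FBN1 by 0.42, 0.76, and 0.62 (0.148).

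In the TGF-beta list, 5 of 20 genes were higher in all 3 lines, beside 21.4% of all genes, and 3 were lower, beside 18.8%, so the counts were near those of all genes. TGFBR3, the coreceptor betaglycan, had log2 fold changes of 0.65, 1.48, and 1.27, and LTBP1, which binds latent TGF-beta, had 0.45, 1.22, and 1.00. TGFBR1, a signalling receptor, had -0.97, -0.32, and -0.95, and CCN2, a target gene of TGF-beta and YAP, had -0.99, -0.63, and -1.58. Their edgeR adjusted p-values were 0.108, 0.132, 0.157, and 0.127. CTNNB1 had nearly the same log2 fold change in each line, 0.29, 0.28, and 0.28 (edgeR adjusted p of 0.356), and CTNNAL1 had -0.39, -0.42, and -0.45 (0.185). The keratins of A549 differed in direction, and the log2 fold change was -1.16 for KRT8, -1.23 for KRT18, and -1.04 for KRT7, and KRT19 was higher, from 44 to 121 reads. KRT8 and KRT18 were also lower in H460 (-0.22 and -0.48) and in H1299 (-0.22 and -0.10). They were the 2 of 4 keratins lower in all 3 lines, beside 18.8% of all genes, and 0 were higher in all 3, beside 21.4%.

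The genes whose log2 counts followed each of the 10 most closely over the 6 libraries are given as a description, since the 6 points are only 3 lines. Pearson's r was 0.998 for ORAI3 with CDH2, 0.999 for RAB11FIP4 with EPCAM, 0.998 for CCDC88C with VIM, and 0.998 for AHR with FN1. Among the transcription factors, r was 0.998 for TMEM44 with ZEB1, 0.999 for DENND4A with ZEB2, 0.999 for C3 with SNAI1, 0.999 for ENPP2 with SNAI2, and 0.999 for INTS8 with TWIST1. CDH1 was closest to CNTNAP3C and CNTNAP3, near copies of each other. Of 13361 genes compared, between 8 (ZEB2) and 83 (TWIST1) had r over 0.99 with a given gene.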

How the data were processed

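The authors trimmed the reads (Trimmomatic), aligned them to GRCh38 with HISAT2 2.1.0, and estimated abundances with StringTie on an NCBI annotation. The sources give different StringTie versions. The deposited table gives read counts, which are whole numbers and not normalized, FPKM, and TPM. The deposited FPKM, scaled by the authors for length and depth, were not used, and the deposited TPM served to compare levels between genes. Another 18 columns of other samples were not used.

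The members and lists were chosen with earlier results of these data known. Counts were tested with edgeR 4.0.16 (glmQLFit and glmQLFTest, TMM, filterByExpr on the design, cell line and treatment as terms, 2 residual degrees of freedom), with Benjamini-Hochberg adjustment over 21771 genes and a threshold of 0.05. The control and si-MALAT1 library of a line are paired because they come from the same cell line. Alternatives were DESeq2 1.42.0, limma 3.58.1 on log2(TPM + 1), other scaling and filters, no block, and single libraries or pairs left out. Within a line, log2 of the RLE-scaled count plus 1 was compared. The scripts were tested on simulated data. With 1 library per line and condition, the p-values of the main fit rest on how differently the lines changed with si-MALAT1. They do not measure the spread between repeat cultures. A fold against 0 reads was bounded with 3 counts over the group. Named genes were the 10 members, MALAT1 as a check of the labels, genes overlapping members, up to 4 genes per list with the smallest adjusted p in a contrast, and the 2 most alike protein-coding genes with a mean count of at least 50. Genes of the lists with 0 reads in every library (PTPRC, CD3E, CDH5, GRHL2, RAB25, and PRSS8), the microRNA genes and their hosts, and TGFBR2 were named after their values were seen. So were the epithelial genes lower in A549 than in H460. A further gene fixed as a check is not reported here. R was version 4.3.3, Python 3.11.15, scipy 1.17.1, pandas 2.3.3, numpy 2.4.6, and matplotlib 3.10.9.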

Additional observations from a re-analysis of the deposited data

Results flagged for a closer look

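For 4 of the 8 EMT genes read in every library (50%), the log2 fold change after si-MALAT1 had opposite signs in different cell lines. The counting intervals of these 4 did not reach 0 in any line. With 1 library per cell line and condition, the difference between lines was not tested. FN1 was lower in H460 and higher in H1299 and A549, and its highest and lowest log2 fold changes were 1.67 apart. ZEB2 had the same signs with a difference of 1.01, and VIM with a difference of 0.39. ZEB1 was higher in H1299 and lower in H460 and A549, with a difference of 0.37. By the same criterion, opposite signs with all 3 intervals off 0, 2453 of the 17834 genes read in every library (13.8%) were counted. The intervals narrow as reads rise, and the share was not compared at matched read counts.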

How the results depend on the processing

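Of 96 values of single genes recomputed for si-MALAT1 against control, 86 kept their direction and their side of the threshold. EPCAM, SNAI1, and SNAI2 have no adjusted p from DESeq2 and are not counted there for it. DESeq2 gave 763 genes higher and 692 lower, where edgeR gave 0 and 0, and called 1 of the 10 EMT genes, CDH2. Filtering on the treatment groups, chosen after the data were seen, gave 1 gene lower, MALAT1. Leaving out a pair gave 0 to 51 genes higher and 0 to 112 lower, the larger numbers without the H460 pair. Without the replicate block, that is without the pairing by cell line, 0 genes were called in either direction, and the log2 fold change of FN1 was -0.0056 instead of 0.67. Values near 0 changed sign. VIM was at 0.01, and at -0.0059 without a filter, -0.032 without the H1299 pair, and -0.066 without the A549 pair. Without the H1299 pair, SNAI1 was at 0.10 instead of -0.23 and SNAI2 at 0.022 instead of -0.23.

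Between lines, 305 of 330 values of single genes were kept, 19 lost the call, 4 gained it, and 2 changed sign. The 2 were SNAI1 in A549 against H460, at -0.027 without the H460 control and -0.36 without the A549 si-MALAT1 library, over a range of -0.36 to 0.45 when 1 library was left out. For A549 against H460, limma on log2(TPM + 1) gave 2473 genes lower instead of 3900, and leaving out a library gave 1840 to 3999 genes higher and 1896 to 4264 lower. For H1299 against A549, it gave 2998 to 5601 higher and 2911 to 5154 lower, and 5 to 10 EMT genes called. The cause was not tested. The limma test also lost ZEB2 in H1299 against H460 (0.139), FN1 in A549 against H460 (0.0513), and CDH2 (0.0694) and SNAI2 (0.134) in H1299 against A549, and without the treatment term CDH2 was lost there too (0.12). Within lines, log2(TPM + 1) left 0 genes in H460 and 2 in H1299 past 1.5-fold. A log2 fold change of 1.5 left 0, 1, and 0 in H460, H1299, and A549. Of 72 values there, 10 moved beyond counting error and 0 of them changed sign. Depth limits CDH1 in H460 and H1299, EPCAM, SNAI1, and SNAI2 in H1299, which rest on few reads.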

Other observations

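TGFBR2, a receptor of TGF-beta that was chosen after its values were seen, had 1214 reads without and 1031 with si-MALAT1 in H460, 2919 and 10839 reads in H1299, with 4320 and 13984 in A549. On the log2 scale this is -0.15, 2.02, and 1.55, the same signs and the same order of lines as for FN1. COL1A1, a collagen gene of the fibroblast list, was higher after si-MALAT1 in all 3 lines at low levels, with 175 and 472 reads for H460, 38 and 144 for H1299, and 267 and 469 for A549, with an edgeR adjusted p of 0.169.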
